A study of Mus musculus with 24 samples.

Results

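The genes Arsa, Arsb, Aga, Psap, Hexa, Glb1, Gla, Neu1 and Neu2, which serve the breakdown of glycans in lysosomes, were followed in retinas of mice with the P347S rhodopsin mutation and of normal mice. The genes were picked by name, and their probe sets were found through the RefSeq transcript in each probe set name. Each of the 9 genes had 1 probe set, so they make up 9 of the 1246 probe sets of the array and 9 of the 909 genes named on it. The Gla and Neu2 probe sets have the suffix s, so some of their probes may also match further transcripts. The name of the group is loose for 2 of its members: Psap encodes the precursor of activator proteins and no enzyme, and Neu2 encodes a sialidase of the cytosol.

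Much of the glycan breakdown in lysosomes runs from the outer end, where each enzyme must remove its sugar or sulfate before the next can act. Sulfatases strip sulfate from sulfatide and from chondroitin and dermatan sulfate, exoglycosidases and sialidases take off single sugars, and small activator proteins lift glycolipids out of membranes so that the enzymes can reach them. Inherited loss of these enzymes causes storage disease, often with damage to nerve cells and retina. In the retina, shed photoreceptor membrane and dead cells are taken up by the pigment epithelium and by phagocytic glia, which degrade them in lysosomes.

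The study compared mutant (P347S+) and normal (P347S-) retinas taken at an age of 1 month, 2 months, 3 months or 4 months, with 3 arrays in each of the 8 groups and 24 in all. The mutant mice are transgenic and lose rods gradually over this span, per the design text. Sex is unknown per the labels, and strain, promoter of the transgene and number of animals per array are not given in the sources used here. Total RNA of retina was labelled as biotinylated cRNA and hybridised to a focused Affymetrix array of glycan-related genes. Signals are log2 values made with the RMA method and ran from 1.90 to 14.17, with array medians of 5.15 to 5.34. It is not stated whether the 3 arrays of a group are 3 animals, so each p-value measures only the spread between these samples, and their number limits how precise a value can be. In 3 arrays the lens gene Grifin read above 10 (11.29 in mutant replicate 2 of 2 months, 11.33 in normal replicate 2 of 2 months and 10.16 in normal replicate 1 of 4 months), against 5.69 to 8.77 in the other 21. Of 16 rod markers listed, Gnb1 alone was measured, and no cone marker was, so the tissue label could be checked only in part. Results without the 3 arrays are given where they change a call.

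Taken over the 4 ages, 4 of the 9 genes were higher in mutant retinas and 1 was lower. Both sulfatases (Arsb, Arsa), the amidase (Aga) and the saposin precursor (Psap) rose by 1.12-fold to 1.30-fold, and the glycosidase Gla fell. Hexa, Glb1, Neu1 and Neu2 did not pass the test. These tests used limma on all 24 arrays, with p-values adjusted over all 1246 probe sets by Benjamini-Hochberg and a threshold of 0.05. Across the whole array 13.8% of probe sets passed as higher and 8.83% as lower (172 and 110 probe sets). Those calls split into 161 higher and 157 lower after quantile normalizing the arrays again, and into 201 higher and 85 lower after centring every array at its median. The median log2 difference of the 9 genes was 0.15, against -0.035 over all probe sets. The same 5 genes passed in all 34 alternative settings tried for this comparison, which include leaving out each of the 24 arrays and leaving out the 3 arrays with high Grifin. Whole retina was measured, so a change in the number of cells of a type and a change in RNA per cell cannot be told apart.

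The sequence before the start site is shown for Arsa, Arsb and Psap, which rose, and for Gla, which fell, because the CACGTG element is the core bound by TFEB, a known regulator of lysosomal genes. RefSeq promoters (build GRCm38.p6) were found for 8 of the 9 genes, all but Aga. Each line gives the 250 bases before the outermost start site, 5′ to 3′ on the strand of the gene, with CACGTG in capitals. Arsa (chr15:89477425-89477674, minus strand) holds it once.
Arsa: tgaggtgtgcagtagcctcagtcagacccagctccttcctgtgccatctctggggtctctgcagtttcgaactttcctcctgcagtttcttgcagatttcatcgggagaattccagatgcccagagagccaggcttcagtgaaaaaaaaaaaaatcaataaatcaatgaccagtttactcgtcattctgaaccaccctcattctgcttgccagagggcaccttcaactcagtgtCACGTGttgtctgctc
Gla (chrX:134601006-134601255, minus strand) holds it at 2 places.
Gla: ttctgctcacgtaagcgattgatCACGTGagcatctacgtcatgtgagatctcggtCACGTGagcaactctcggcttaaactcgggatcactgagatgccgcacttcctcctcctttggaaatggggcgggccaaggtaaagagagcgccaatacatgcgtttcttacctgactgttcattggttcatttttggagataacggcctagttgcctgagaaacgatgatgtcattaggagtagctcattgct
Arsb (chr13:93771429-93771678, plus strand) does not hold these letters.
Arsb: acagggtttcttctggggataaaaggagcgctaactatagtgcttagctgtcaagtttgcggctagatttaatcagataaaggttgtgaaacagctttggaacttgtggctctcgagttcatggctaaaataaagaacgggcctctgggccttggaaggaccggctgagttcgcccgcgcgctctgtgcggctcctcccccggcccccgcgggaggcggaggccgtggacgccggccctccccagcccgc
Psap (chr10:60277378-60277627, plus strand) does not hold them either.
Psap: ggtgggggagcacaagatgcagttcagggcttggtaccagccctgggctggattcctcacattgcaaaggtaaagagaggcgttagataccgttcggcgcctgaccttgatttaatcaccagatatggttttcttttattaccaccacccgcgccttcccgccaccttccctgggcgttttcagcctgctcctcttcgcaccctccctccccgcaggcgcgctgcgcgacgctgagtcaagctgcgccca

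CACGTG reads the same on both strands. It began 16 bases before the start site of Arsa, 48 bases before that of Glb1, and 227 and 194 bases before that of Gla. It was absent from the windows of Arsb, Psap, Hexa, Neu1 and Neu2. Of all 32851 RefSeq promoters 6.02% held it in the same window. The longer TCACGTGA, which contains CACGTG and also reads the same on both strands, stood at both Gla places and in 0.785% of all promoters. GGGCGG, the GC box, searched on both strands, occurred in Hexa, Gla and Neu1 and in 32.7% of all promoters. These matches describe the letters alone.

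Arsb encodes arylsulfatase B, which removes the 4-sulfate from N-acetylgalactosamine in dermatan and chondroitin sulfate. It showed the widest difference of the 9 genes. At 1 month Arsb read 9.46, 9.32 and 9.40 in mutant arrays, against 9.39, 9.18 and 9.38 in normal arrays. At 2 months it read 9.47, 9.53 and 9.23 in mutant arrays, against 9.38, 9.0 and 8.83 in normal arrays. At both ages the genotypes overlapped. At 3 months Arsb read 9.68, 9.73 and 9.87 in mutant arrays, against 9.43, 9.34 and 9.42 in normal arrays. At 4 months it read 9.71, 9.95 and 9.98 in mutant arrays, against 9.0, 9.28 and 9.19 in normal arrays. At 3 and 4 months every mutant array stood above every normal array. The log2 difference, mutant minus normal, was 0.07 ± 0.12 (SE) for the 1-month arrays and 0.34 ± 0.12 for the 2-month arrays. It was 0.36 ± 0.12 for the 3-month arrays and 0.72 ± 0.12 for the 4-month arrays. Arsb passed in limma at 3 months (adjusted p = 0.0491) and at 4 months (adjusted p = 0.000381, 1.65-fold higher), and over the 4 ages (0.38 ± 0.06, adjusted p = 8.11e-05). The 3-month call lies at the threshold: it held in 6 of the 24 fits that leave out 1 array, with adjusted p up to 0.161 without mutant replicate 3 of 3 months. It was also lost without the 3 arrays with high Grifin (0.0534), none of which is of 3 months. The difference itself stayed at 0.36 in that fit, and only its limma error and p-value changed. At 2 months Arsb passed without normal replicate 1 of that age (adjusted p = 0.00939) or with array weights (0.0355).

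Arsa encodes arylsulfatase A, which removes sulfate from sulfatide with the help of a saposin made from Psap. At 1 month Arsa read 8.49, 8.33 and 8.40 in mutant arrays and 8.47, 8.21 and 8.68 in normal arrays. At 2 months it read 8.81, 8.61 and 8.82 in mutant arrays, against 8.31, 8.43 and 8.31 in normal arrays. The genotypes overlapped at 1 month and were apart at 2 months, where the difference was 0.39 ± 0.11 and missed the threshold in limma (adjusted p = 0.0555). That difference passed with arrays centred (0.0324), quantile normalized again (0.0114), with dim probe sets left out (0.0477 and 0.0376), and without normal replicate 2 or 3 of 1 month (0.0398 and 0.0445) or mutant replicate 3 of 4 months (0.0343). At 3 months Arsa read 8.70, 8.70 and 8.80 in mutant arrays, against 8.69, 8.58 and 8.48 in normal arrays. At 4 months it read 8.88, 8.96 and 8.56 in mutant arrays, against 8.2, 8.46 and 8.35 in normal arrays. Mutant arrays were higher without overlap at both of these ages, at 3 months only narrowly. Arsa passed at 4 months (0.46 ± 0.11, 1.38-fold higher, limma adjusted p = 0.00773) and over the 4 ages (0.24 ± 0.06, adjusted p = 0.0038). The 4-month call was lost without mutant replicate 2 of that age (adjusted p = 0.0549) or normal replicate 1 (0.054), and without the 3 arrays with high Grifin (0.0536). Normal replicate 1 is the only 4-month array with high Grifin, so the last 2 fits share the same difference (0.39) and are not separate checks.

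Aga encodes aspartylglucosaminidase, which cuts the bond between asparagine and the first sugar of N-glycans. At 1 month Aga read 8.12, 8.12 and 8.18 in mutant arrays and 8.04, 8.0 and 8.19 in normal arrays. At 2 months it read 8.04, 8.16 and 8.33 in mutant arrays and 7.77, 8.16 and 8.02 in normal arrays. The genotypes overlapped at both ages. At 3 months Aga read 8.37, 8.29 and 8.43 in mutant arrays, against 8.15, 7.78 and 7.78 in normal arrays. At 4 months it read 8.42, 8.34 and 8.29 in mutant arrays, against 7.94, 7.69 and 7.87 in normal arrays. Each mutant array was above each normal array at these ages. Aga passed in limma at 3 months (0.46 ± 0.11, adjusted p = 0.0093), at 4 months (0.52 ± 0.11, 1.43-fold higher, adjusted p = 0.00294) and over the 4 ages (0.31 ± 0.05, adjusted p = 0.000226). Its 3-month call was lost without normal replicate 2 of that age (adjusted p = 0.0506).

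Psap encodes prosaposin, the precursor that is cut into the saposins which present glycolipids to Arsa, Glb1 and Gla among others. At 1 month Psap read 11.87, 11.82 and 11.81 in mutant arrays and 11.72, 11.54 and 11.83 in normal arrays. At 2 months it read 11.74, 11.65 and 11.69 in mutant arrays and 11.60, 11.74 and 11.76 in normal arrays. The genotypes overlapped at both ages, and the 2-month difference was -0.0040. At 3 months Psap read 11.82, 11.84 and 12.11 in mutant arrays, against 11.77, 11.71 and 11.72 in normal arrays. At 4 months it read 12.04, 11.99 and 11.98 in mutant arrays, against 11.58, 11.80 and 11.62 in normal arrays. Mutant arrays stood above normal arrays at 3 and 4 months. The 3-month difference of 0.19 ± 0.08 did not pass (limma adjusted p = 0.135, or 0.0491 with arrays centred), while that of 4 months did (0.34 ± 0.08, 1.26-fold higher, adjusted p = 0.00916), as did that over the 4 ages (0.17 ± 0.04, adjusted p = 0.00696). The 4-month call was lost without normal replicate 1 of that age (adjusted p = 0.054) and without the 3 arrays with high Grifin (0.0694). That replicate is the only 4-month array with high Grifin, so both fits share the same difference (0.30).

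Gla encodes alpha-galactosidase A, which removes the terminal galactose of globotriaosylceramide, and it fell where Arsb, Arsa, Aga and Psap rose. At 1 month Gla read 6.98, 6.83 and 6.79 in mutant arrays and 6.94, 6.65 and 6.87 in normal arrays. At 2 months it read 6.58, 6.58 and 6.78 in mutant arrays and 6.90, 6.77 and 6.75 in normal arrays. The genotypes overlapped at both ages. At 3 months Gla read 6.64, 6.74 and 6.88 in mutant arrays, against 6.97, 6.92 and 7.05 in normal arrays. At 4 months it read 6.77, 6.77 and 6.51 in mutant arrays, against 6.92, 7.04 and 6.98 in normal arrays. Every mutant array was below every normal array at 3 and 4 months. The 3-month difference was -0.23 ± 0.09 and did not pass (limma adjusted p = 0.112, or 0.00642 when quantile normalized again). Gla passed at 4 months (-0.29 ± 0.09, adjusted p = 0.0398) and over the 4 ages (-0.16 ± 0.05, adjusted p = 0.0173). The 4-month call was lost without mutant replicate 3 (adjusted p = 0.191) or any of normal replicates 1, 2 and 3 (0.057, 0.124 and 0.106), and without the 3 arrays with high Grifin (0.0716). Of the 4-month arrays the last fit leaves out normal replicate 1 alone.

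**Figure D1:**
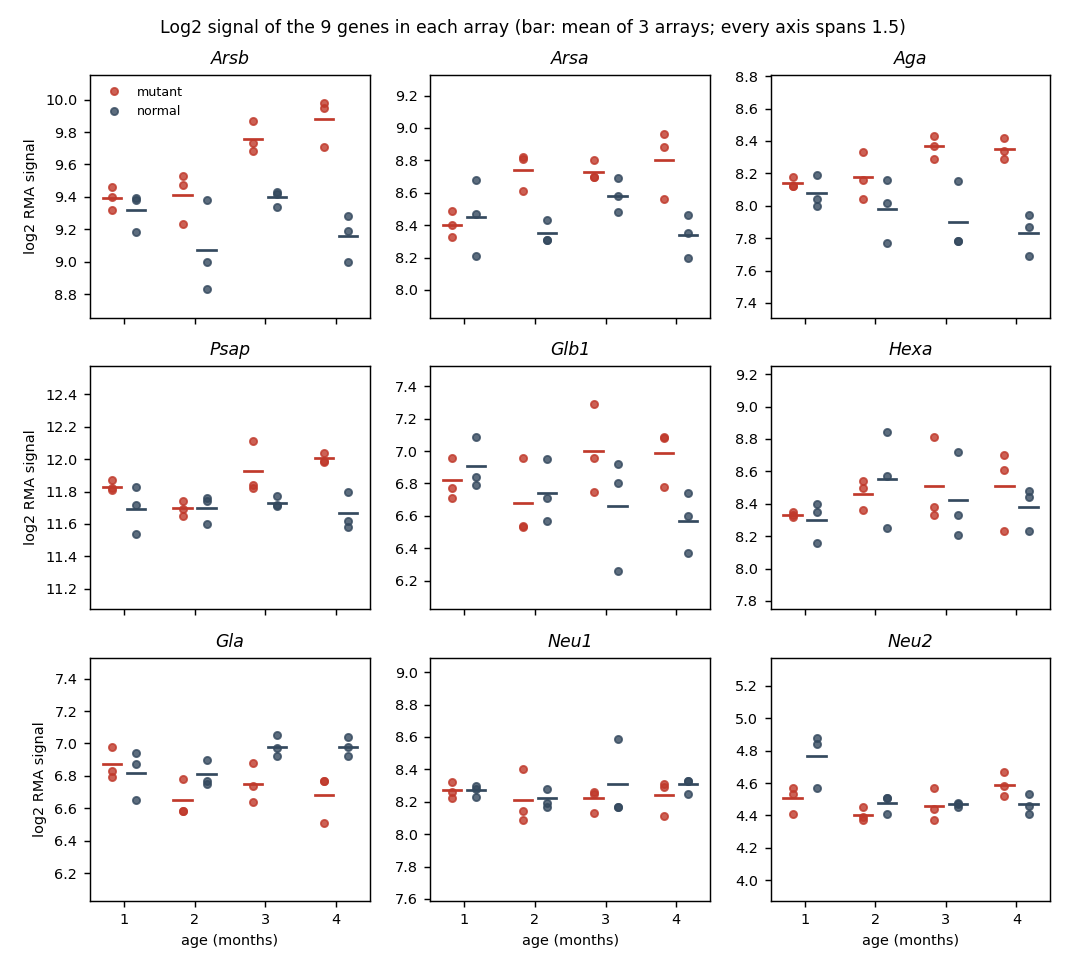
Log2 RMA signal (vertical axis) of each of the 9 genes by age in months (horizontal axis). Points are single arrays, mutant left and normal right at each age, bars are means of 3 arrays, and every vertical axis spans 1.5 log2 units. Mutant arrays of Arsb, Aga and Psap stand above all normal arrays at 3 and 4 months, those of Gla stand below, and the genotypes overlap for Hexa and Neu1 at every age.

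Among the other glycosidases, Glb1 encodes the lysosomal beta-galactosidase that acts on GM1 ganglioside and keratan sulfate. At 4 months Glb1 read 7.08, 7.09 and 6.78 in mutant arrays, against 6.60, 6.74 and 6.37 in normal arrays. The mutant arrays were higher without overlap, yet the difference of 0.42 ± 0.17 did not pass in limma (adjusted p = 0.124, or 0.0174 with array weights). At 3 months the Glb1 difference was 0.34 ± 0.17 with overlap, and at 1 and 2 months it was -0.09 ± 0.17 and -0.06 ± 0.17. Over the 4 ages Glb1 differed by 0.15 (95% interval -0.03 to 0.33, adjusted p = 0.206). Hexa encodes the alpha subunit of beta-hexosaminidase A, which degrades GM2 ganglioside. Over all ages Hexa ran from 8.23 to 8.81 in the 12 mutant arrays (median 8.37) and from 8.16 to 8.84 in the 12 normal arrays (median 8.37). The genotypes overlapped at each age, and the difference over the 4 ages was 0.04 (95% interval -0.12 to 0.20, adjusted p = 0.726).

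Neither sialidase passed. Neu1 encodes the lysosomal sialidase, which works in a complex with cathepsin A and beta-galactosidase. It ran from 8.09 to 8.40 in mutant arrays (median 8.25) and from 8.17 to 8.59 in normal arrays (median 8.27), with overlap at every age. Over the 4 ages Neu1 differed by -0.04 (95% interval -0.15 to 0.06, adjusted p = 0.541), and its differences at single ages ran from -0.09 to -0.0046. Neu2, the cytosolic sialidase, had the lowest signal of the group, with a mean of 4.52, below the median of 5.26 over all probe sets, where background is not known. At 1 month Neu2 read 4.41, 4.53 and 4.57 in mutant arrays, against 4.88, 4.57 and 4.84 in normal arrays. The mutant arrays were lower without overlap, by less than the rounding shown, and the difference of -0.26 ± 0.08 did not pass (limma adjusted p = 0.166), although it did with array weights (0.00654) and without normal replicate 2 of 1 month (0.0459). At 4 months Neu2 read 4.67, 4.52 and 4.58 in mutant arrays and 4.53, 4.46 and 4.41 in normal arrays, a difference of 0.12 ± 0.08 with overlap. Over the 4 ages Neu2 differed by -0.05 (95% interval -0.14 to 0.03, adjusted p = 0.333).

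Set side by side, the ages differed in how many of the 9 genes passed. At 1 month 0 of 9 passed in limma (1 at an unadjusted p under 0.05), where 0.321% of all probe sets passed and 9.23% had an unadjusted p under 0.05. At 2 months 0 of 9 passed (2 at an unadjusted p under 0.05), where 3.45% of all did and 14.4% at the unadjusted threshold. At 3 months 2 rose, Arsb and Aga, where 6.66% of all probe sets rose. At 4 months 4 rose, Arsb, Arsa, Aga and Psap, where 9.47% of all rose, and Gla fell, where 3.45% of all fell. Quantile normalizing again turned the split of all 4-month calls from 118 higher and 43 lower into 100 and 87. The 4-month count of 5 became 2 without normal replicate 1 of that age, the only 4-month array with high Grifin, which left Arsb and Aga. The genotypes did not overlap for 1 gene at 1 month (Neu2, lower) and 1 at 2 months (Arsa, higher). At 3 months they did not overlap for 4 higher genes and 1 lower gene, and at 4 months for 5 higher genes and 1 lower gene. Over all probe sets the shares without overlap were 11.7% lower at 1 month, 9.07% higher at 2 months, 13.2% higher and 19.4% lower at 3 months, and 17.1% higher and 12.9% lower at 4 months. The median difference of the 9 genes was 0.0305, -0.00761, 0.15 and 0.338 at the 4 ages, against -0.0224, 0.00953, -0.0565 and -0.0144 over all probe sets.

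**Figure D2:**
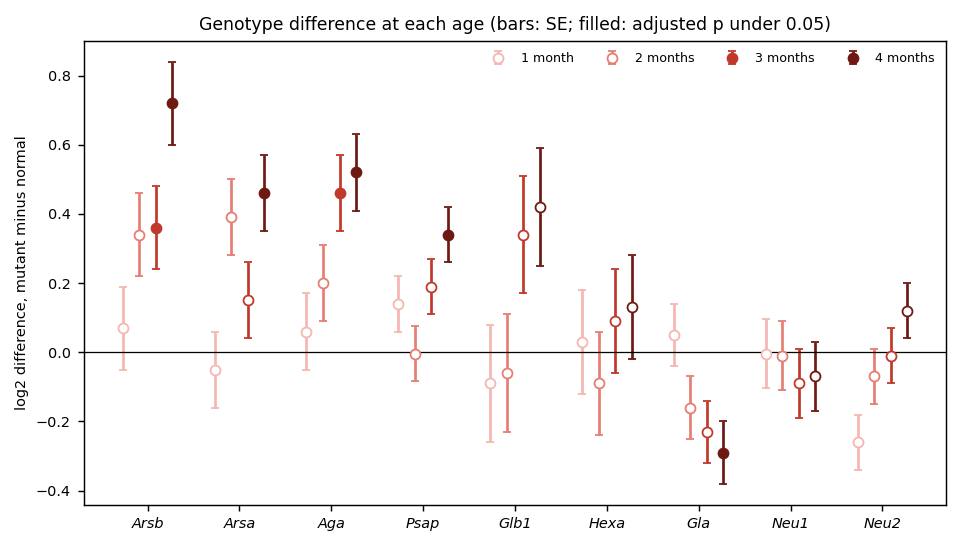
Log2 difference, mutant minus normal (vertical axis), of the 9 genes at 1, 2, 3 and 4 months (from light to dark). Bars are standard errors of limma's estimate and filled points passed at an adjusted p under 0.05. Arsb reaches 0.72 at 4 months, Gla reaches -0.29, and no point of 1 or 2 months is filled.

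Whether the genotype difference changed with age was tested directly. Of the 9 genes 0 passed the moderated F test in limma (4 at an unadjusted p under 0.05), where 0.321% of all probe sets passed and 14.4% had an unadjusted p under 0.05. Among them Arsb had the largest F (5.16, limma adjusted p = 0.201), followed by Arsa (4.30, adjusted p = 0.258), Neu2 (4.17, adjusted p = 0.26) and Aga (4.06, adjusted p = 0.26). The 4-month difference less the 1-month difference was 0.65 ± 0.17 for Arsb (adjusted p = 0.0786), 0.38 ± 0.11 for Neu2 (0.108), 0.51 ± 0.16 for Arsa (0.139) and 0.46 ± 0.15 for Aga (0.167). It was -0.34 ± 0.13 for Gla (0.276) and 0.51 ± 0.24 for Glb1 (0.427). For the dim Neu2 the genotype difference went from -0.26 at 1 month to 0.12 at 4 months. In that contrast 0 of 9 passed (6 at an unadjusted p under 0.05), where 0.241% of all probe sets did and 11.4% at the unadjusted threshold. A wider gap at 4 months than at 1 month is therefore given as a value and not as a call, although with array weights in the fit the F test passed for Arsb (adjusted p = 0.0423) and Neu2 (0.0482). The 4-month difference less the 1-month difference passed with array weights for Arsb (0.00748), Arsa (0.0115), Aga (0.0319) and Neu2 (0.0115). It also passed for Arsb without normal replicate 1 of 2 months (0.0357), for Arsa without mutant replicate 3 of 4 months (0.0374) and for Neu2 without normal replicate 2 of 1 month (0.0349).

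Within mutant retinas, from 1 to 4 months of age, Arsb rose by 0.49 ± 0.12 (1.41-fold, limma adjusted p = 0.0251), the only call among the 9 genes, where 1.52% of all probe sets rose. All calls of this contrast split into 19 higher and 14 lower, and into 10 and 12 with arrays centred. The Arsb call was lost with the arrays centred on their median (adjusted p = 0.0571), quantile normalized again (0.0917) or without any of 5 single arrays, mutant replicates 1, 2 and 3 of 1 month (0.066, 0.13 and 0.0768) and 2 and 3 of 4 months (0.0992 and 0.0701). Arsa differed by 0.39 ± 0.11 (adjusted p = 0.0655) and passed without mutant replicate 3 of 4 months (0.0165), normal replicate 2 of 1 month (0.0386) or normal replicate 3 of 1 month (0.0426). Aga differed by 0.21 ± 0.11 and Psap by 0.17 ± 0.08. In normal retinas 0 of the 9 genes passed from 1 to 4 months (2 at an unadjusted p under 0.05), where 0% of all probe sets passed and 7.38% had an unadjusted p under 0.05. There Arsb differed by -0.16 ± 0.12, Arsa by -0.11 ± 0.11, Aga by -0.24 ± 0.11, Glb1 by -0.34 ± 0.17 and Neu2 by -0.30 ± 0.08 (adjusted p = 0.262 for Neu2, or 0.0152 with array weights). The 4-month and 1-month arrays of each genotype also enter the genotype comparisons above, so these values are not independent of them.

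**Figure D3:**
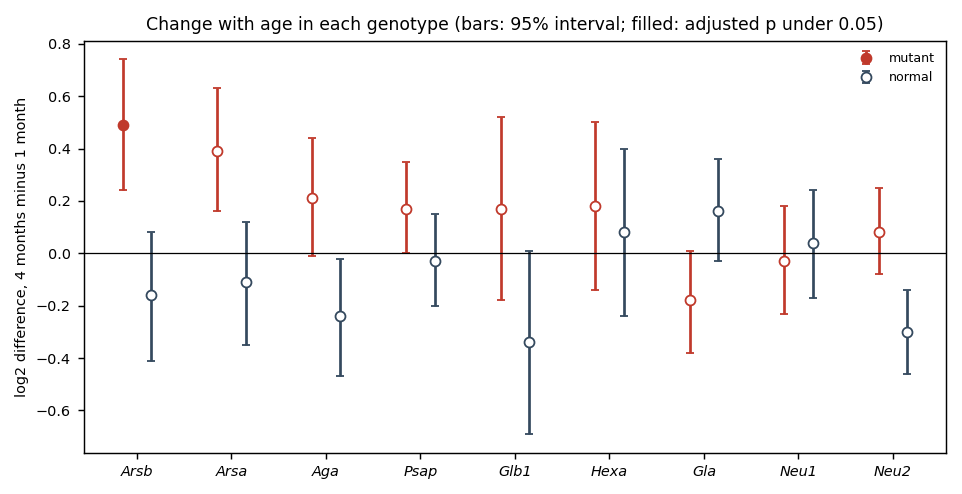
Log2 difference of 4 months minus 1 month (vertical axis) for each of the 9 genes in mutant retinas (left of each pair) and normal retinas (right). Bars are 95% intervals and the filled point passed at an adjusted p under 0.05. Arsb in mutant retinas (0.49) is the only filled point, and the normal value of Aga is -0.24.

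The wider pathway was read from a list of 49 gene symbols for lysosomal sulfatases, glycosidases, sialidases, activators and mannose 6-phosphate targeting, of which 26 were measured, the 9 genes included. Of the other 17 genes 2 rose and 15 did not pass over the 4 ages, with a median difference of 0.047. Over the whole array 13.8% of probe sets rose, so 2 of 17 is near the background share. Hpse, the heparanase that cuts heparan sulfate chains, rose by 0.31 ± 0.09 (limma adjusted p = 0.0173), with a mean signal of 5.03, below the median of all probe sets. Gusb, the beta-glucuronidase that acts on several glycosaminoglycans, rose by 0.28 ± 0.08 (adjusted p = 0.0135). At 4 months Gusb read 7.25, 7.20 and 6.89 in mutant arrays, against 6.74, 6.60 and 6.53 in normal arrays. The genotypes were apart for Gusb at that age (0.49 ± 0.16, adjusted p = 0.0401), while the difference of Hpse did not pass there (0.45 ± 0.18, adjusted p = 0.126), although its arrays did not overlap either. Hyal1, a hyaluronidase whose probe set has the suffix a, was chosen after its values were seen: it did not pass over the 4 ages (0.04 ± 0.06), rose at 3 months (0.48 ± 0.13, adjusted p = 0.0188) and rose within mutant retinas from 1 to 4 months (0.63 ± 0.13, adjusted p = 0.0101). Within normal retinas Hyal1 also differed by 0.40 ± 0.13 over that span, which did not pass (limma adjusted p = 0.29). Its genotype difference at 4 months was 0.01 ± 0.13, and this less the 1-month difference was 0.23 ± 0.18 (adjusted p = 0.745). Manba, the beta-mannosidase (0.24 ± 0.10, adjusted p = 0.0873), and the GM2 activator Gm2a (0.14 ± 0.06, adjusted p = 0.0935) were nearest to the threshold among those that did not pass. Of the 4 measured sulfatases Arsa and Arsb rose, while Galns (0.08 ± 0.07) and Sgsh (-0.19 ± 0.16) did not pass. Ctsa, the cathepsin A that protects Neu1 and Glb1, differed by -0.08 ± 0.06 (adjusted p = 0.361), and Neu3, the sialidase of the plasma membrane, by 0.03 ± 0.06.

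**Figure D4:**
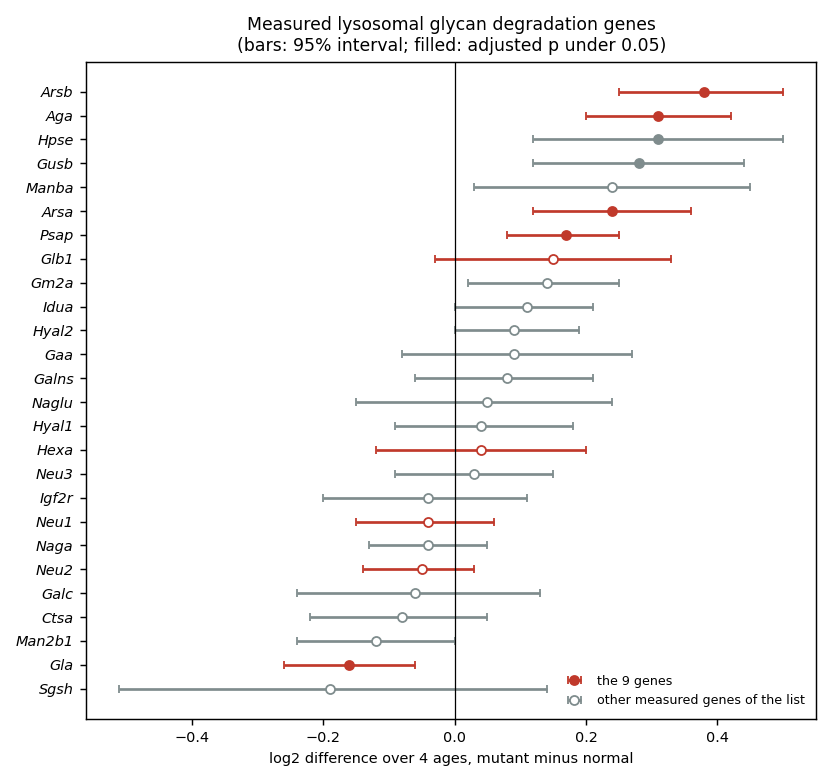
Log2 difference over the 4 ages, mutant minus normal (horizontal axis), of the 26 measured genes of the pathway list, sorted by size. Bars are 95% intervals, the 9 genes are red, the others grey, and filled points passed at an adjusted p under 0.05. Arsb lies at the top (0.38) and Sgsh at the bottom (-0.19, not passed), with 19 open points.

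The genes whose 8 group means ran most like those of a member were named by a fixed rule, as a description. The group means share arrays with the tests above, and no test was made. For Arsb these were Fut8, the core fucosyltransferase (Pearson r = 0.983), and the galactosyltransferase B4galt4 (r = 0.971). For Arsa they were Galnt17 (r = 0.979) and Gusb (r = 0.938), for Aga the sulfotransferase Chst11 (r = 0.969) and the adhesion molecule Icam1 (r = 0.950), and for Psap Galnt14 (r = 0.982) and the glypican Gpc3 (r = 0.973). For Gla they were the heparan sulfate polymerase Ext2 (r = 0.939) and Arfgef1 (r = 0.925). Among the 9 genes themselves the group means of Arsb went with those of Psap (r = 0.91), Arsa (0.86) and Aga (0.86), and those of Gla went with Neu1 (0.89) and against Aga (-0.81). The group means of Neu1 were nearly flat, from 8.21 to 8.31, so its correlation with Gla rests on small differences.

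Markers of several other cell types also differed between mutant and normal retinas. Of 20 listed markers of microglia and macrophages, cells rich in lysosomes, 7 were measured. Over the 4 ages 4 of them rose, where 13.8% of all probe sets rose. These were Csf1r (0.89 ± 0.09), Cx3cr1 (0.94 ± 0.10), Adgre1 (0.81 ± 0.10) and Siglech (0.40 ± 0.07), with limma adjusted p from 7.56e-07 to 0.000146. Cd33, Siglec1 and Mrc1 did not pass. The log2 of the summed signal of all 7 ran from 8.83 to 9.74 in the 12 mutant arrays and from 8.24 to 8.58 in the 12 normal arrays, without overlap. It was apart already at 1 month, with 8.83 to 9.08 in mutant arrays and 8.24 to 8.58 in normal arrays, an age at which 0 of the 9 genes passed in limma. The highest sum, 9.74, was in mutant replicate 3 of 3 months, an array that ranked 1 of 24 for Aga, Psap and Glb1, 2 for Hexa, 3 for Arsb and 5 for Arsa, but 10 for Gla, 14 for Neu1 and 24 for Neu2. Of 15 listed markers of Müller and reactive glia 5 were measured (Vcam1, Icam1, Cd44, Fgf2 and Lgals1) and 4 rose, where 13.8% of all probe sets rose. Gfap, Vim and Glul of that list were not measured, so Müller glia could be checked only in part. The log2 of the summed signal of the 5 measured ran from 9.62 to 10.77 in mutant arrays and from 9.05 to 10.52 in normal arrays, with overlap. Of 10 endothelial and mural markers 5 were measured (Pecam1, Mcam, Cd34, Pdgfrb and Cspg4) and 2 rose, beside the same share of 13.8%. Their sums were 7.48 to 8.07 in mutant arrays and 7.46 to 7.78 in normal arrays, also with overlap. At 1 month alone these sums were apart, with 7.72 to 7.80 in mutant arrays and 7.46 to 7.68 in normal arrays. Early separation was thus not particular to the microglial markers. Over the 4 ages the rod marker Gnb1 was lower in mutant retinas by 0.21 (log2, SE 0.06, limma adjusted p = 0.0121). Across the array 8.83% of probe sets fell. From 1 to 4 months the median of Gnb1 was 12.88, 12.84, 12.65 and 12.95 in mutant arrays. In normal arrays it was 12.95, 13.12, 12.74 and 13.18. The genotypes overlapped at 1 and 3 months, and the mutant median did not fall steadily with age. Of 14 listed inner-retina markers L1cam alone was measured, and it did not pass. Among 3 measured lens, cornea and blood markers (Grifin, Pf4 and Ppbp) 1 fell, beside the share of 8.83%, and Grifin itself did not pass. Of 11 markers listed for pigment epithelium and choroid 2 were measured, the connective-tissue genes Dcn and Lum, and neither passed. Rpe65 and Best1 of that list were not measured, so the pigment epithelium itself could not be checked. The summed signal of Dcn and Lum (log2) ran from 4.43 to 6.65 in mutant arrays and from 4.34 to 7.05 in normal arrays, with a median of 6.62 in normal arrays of 2 months. The part of these markers in the differences of the 9 genes was not tested.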

How the data were processed

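RNA of 24 mouse retina samples was measured on a focused Affymetrix array. The deposited values are log2 signals, computed by the authors using RMA per the submitters' processing notes. Its version, the arrays normalized together, any filter and the genome build are not given in the sources used here. The value range (no value above 14.17) was checked against a log2 scale. Nothing was scaled again in the main fit. Gene names came from the RefSeq transcript in each probe set name (963 of 1246 probe sets matched).

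In R 4.3.3 with limma 3.58.1, lmFit and eBayes were run on the 24 arrays together, with 1 mean per group (8 groups, 16 residual and 4.37 prior degrees of freedom), with 2-sided tests and Benjamini-Hochberg adjustment over 1246 probe sets. Errors are limma's standard errors. Samples were grouped by the genotype and age in the labels. Alternatives were centring, quantile normalizing again, leaving out dim probe sets, an intensity trend with robust estimates, array weights, replicate blocks, fitting 1 age alone and leaving out each array. The fit was tested on simulated data. Groups of 3 are small, so calls at a single age lean on the variance that limma pools over groups and probe sets. Equal replicate numbers were checked for pairing: same-numbered mutant and normal arrays deviated together (r above 0.1) in 3 of 12 pairs, all at 2 months, where the block changed no call.

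The members, lists and tests were chosen with earlier results of these data known. All members were named. Of the pathway list each gene that passed over the 4 ages was named, except that 1 item is not reported here and is left out of the list's counts, and for each member that passed over the 4 ages the 2 genes with the most similar group means. Names of non-passing pathway and marker genes were chosen after their values were seen.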

Additional observations from a re-analysis of the deposited data

How the results depend on the processing

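Over the 4 ages the count of 5 passing genes stayed at 5 in all 34 alternative settings. Adjusted p ran from 6.52e-06 to 0.00127 for Arsb, 4.27e-05 to 0.000661 for Aga, 0.000548 to 0.00889 for Arsa, 0.000607 to 0.0294 for Psap and 0.000115 to 0.042 for Gla. At an adjusted p under 0.01 it was 4. Counts at single ages moved more, and the cause was not tested. Leaving out 1 array gave 0 to 1 at 1 month, 0 to 1 at 2 months, 0 to 2 at 3 months, 2 to 5 at 4 months, 0 to 2 within mutant retinas, 0 to 0 within normal retinas and by age, 5 to 5 over the 4 ages and 7 to 9 for the pathway list (7 of 26 with no array left out, and 10 with arrays centred or quantile normalized again). Over all probe sets 13.8% passed as higher and 8.83% as lower in the main fit, so 7 of 26 is near the background share. All calls numbered 172 higher and 110 lower in that fit, 201 and 85 with arrays centred, and 161 and 157 quantile normalized again. The 2-month count of 0 became 1 with arrays centred on their median, quantile normalized again, probe sets under the 25th percentile or under the median left out, or array weights. The 3-month count of 2 became 1 with array weights, the replicate number as a block, without the 3 arrays with high Grifin (none of them of 3 months), or with Grifin and Dcn as covariates, and 0 with the 6 arrays of that age alone. The 4-month count of 5 became 2 with its 6 arrays alone or without the 3 Grifin arrays, 4 with an intensity trend and robust estimates or with covariates (Gla lost, adjusted p = 0.0682 and 0.0592), and 6 with array weights. Within mutant retinas the count of 1 became 0 with arrays centred or quantile normalized again, and 2 with probe sets under the median left out or array weights. Array weights also gave 1 at 1 month, 1 within normal retinas and 2 by age. The Grifin alternatives were chosen after seeing the data.

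The replicate number as a block ended the Arsb call at 3 months (adjusted p = 0.065) and the Gla call at 4 months (0.0532). With blocks of the 12 same-numbered pairs the Gla call at 4 months had an adjusted p of 0.05, and the count over the 4 ages stayed at 5. The block on the 6 arrays of 2 months gave 0, as without it, and blocks changed no other count of the 9 genes.

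Sign changes met 14 differences, and 0 of those had passed. Other than by leaving out arrays they were, at 1 month, Gla quantile normalized again (-0.0628) and Neu1 centred (0.0290) or with covariates (0.00456). At 2 months they were Psap quantile normalized again (0.0353), without the Grifin arrays (0.0390) and with covariates (0.0729), Glb1 without the Grifin arrays (0.106), and Neu1 quantile normalized again (0.0522), with array weights (0.010) and without the Grifin arrays (0.00558). At 3 months Neu2 changed sign when centred (0.0265), quantile normalized again (0.0333), with array weights (0.0170) and with covariates (0.00704). From 1 to 4 months Neu1 in mutant retinas read 0.000500 with array weights and 0.0151 with covariates, and Psap in normal retinas 0.0162 without the Grifin arrays. Leaving out 1 array gave, at 1 month, -0.168 to 0.0663 for Arsa, -0.0390 to 0.0777 for Hexa, -0.165 to 0.000436 for Glb1, -0.0380 to 0.109 for Gla and -0.0318 to 0.0179 for Neu1. At 2 months it gave -0.0550 to 0.0251 for Psap, -0.241 to 0.0558 for Hexa, -0.205 to 0.0376 for Glb1 and -0.103 to 0.0528 for Neu1. At 3 months it gave -0.0617 to 0.239 for Hexa, -0.165 to 0.0442 for Neu1 and -0.0643 to 0.0389 for Neu2. With age it gave -0.0636 to 0.0337 for Neu1 in mutant retinas and -0.106 to 0.0402 for Psap in normal retinas. Signal over background is not known here, which limits Neu2 and Hpse most.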
